A study of Mus musculus with 3 samples.

Results

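The 6 genes described here, Areg, Ebi3, Il10, Tgfb1, Cd83 and Ecm1, encode secreted or surface mediators linked to suppression or tissue repair by regulatory T (Treg) cells. They were taken by gene symbol from the 31053 genes of the deposited count table, and each symbol matched 1 gene. Cells were T cells from subcutaneous B16-Ova melanomas or MC38-Ova colon carcinomas of C57BL/6 mice, both lines carrying ovalbumin, harvested on day 14 and sorted as TCRB+ CD3+ CD90.2+ CD11b- lymphocytes. The T cells of each tumour carried 1 antibody hashtag and were combined in 1 droplet capture, with antibody tags for PD-1 and Tim-3 and a Biotin tag that reads the biotinylated lectin L-Pha. The growth protocol describes MC38 tumours, the tumour field names both lines, and the number of mice behind each pool is not given in the sources used here. Each tumour was therefore 1 pool, and a difference between tumours has no replicate check.

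Areg encodes amphiregulin, an EGF receptor ligand that is shed from the cell surface and is known as a repair factor made by tissue Treg cells. Ebi3 encodes the beta subunit that IL-27 and IL-35 share, Il10 an anti-inflammatory cytokine, and Tgfb1 the latent cytokine TGF-beta1, which cells display on GARP (Lrrc32) and release through the integrin pair encoded by Itgav and Itgb8. Cd83 encodes a surface protein of activated lymphocytes and mature dendritic cells, and Ecm1 a secreted glycoprotein of the extracellular matrix that T helper cells also make.

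The oligonucleotides that define the groups are shown first, because the tumour of a cell and its lectin signal rest on them alone. Hashtag 1 marked the B16-Ova cells and hashtag 2 the MC38-Ova cells, as the series' design states, and the Biotin tag counts L-Pha, a lectin that binds branched N-glycans.
hash#1: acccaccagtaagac
hash#2: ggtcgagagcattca
Biotin: cggtatatcaacaga

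On GRCm38 with the GENCODE vM21 genes, Areg lies at chr5:91139599-91148432 on the plus strand and Ebi3 at chr17:55952640-55957022 on the plus strand. Il10 lies at chr1:131019845-131024974, Tgfb1 at chr7:25687002-25705077 and Cd83 at chr13:43784775-43803132, all on the plus strand. Ecm1 lies at chr3:95734147-95739569 on the minus strand. The antisense gene Gm16712 overlaps Ebi3, and Mir7014 lies within Ecm1. The RefSeq promoter table of GRCm38.p6 held 4 of the 6 genes, and the 250 bases before the start are printed for Areg and Ecm1, whose levels differed both between classes and between the tumour pools. Capitals mark a cAMP response element, TGACGTCA, in Areg and an AP-1 motif, TGANTCA, in Ecm1, searched on both strands.
Areg, chr5:91139349-91139598, plus strand: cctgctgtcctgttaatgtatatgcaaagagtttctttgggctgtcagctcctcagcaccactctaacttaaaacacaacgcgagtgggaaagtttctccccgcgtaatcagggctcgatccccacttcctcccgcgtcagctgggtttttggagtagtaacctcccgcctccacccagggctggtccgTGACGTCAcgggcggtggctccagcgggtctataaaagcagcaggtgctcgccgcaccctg
Ecm1, chr3:95739570-95739819, minus strand: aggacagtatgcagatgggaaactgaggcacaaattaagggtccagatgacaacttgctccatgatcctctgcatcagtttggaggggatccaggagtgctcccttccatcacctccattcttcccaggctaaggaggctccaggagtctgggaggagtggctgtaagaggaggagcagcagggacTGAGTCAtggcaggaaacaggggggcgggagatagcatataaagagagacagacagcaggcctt
The cAMP response element began 61 bases before the Areg start, and 1.55% of 32851 promoter windows of this length held one. The AP-1 motif began 64 bases before the Ecm1 start and occurs in 6.75% of windows. Neither motif was found in the windows of Ebi3 and Tgfb1. A match is a run of letters and was not tested as a binding site.

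Of 19912 barcodes, all distinct and from 1 capture, 14992 were kept (6585 B16-Ova and 8407 MC38-Ova) with 133269158 RNA UMIs. A UMI is a counted transcript molecule, and levels are given in CPM, the UMIs of a gene divided by all RNA UMIs of that class and pool and scaled to a counts-per-million total. The 4 classes were set by rule. Treg cells had a Foxp3 and no Cd8a or Cd8b1 UMI (777 B16-Ova and 960 MC38-Ova cells), CD4 cells had Cd4 and neither Foxp3 nor Cd8 transcripts (753 and 736), and CD8 cells had at least 2 Cd8a or Cd8b1 UMIs and neither Cd4 nor Foxp3 (1792 and 2544). Innate-like T cells had Cd3e and at least 2 UMIs of Fcer1g or Tyrobp, no Cd4 or Foxp3 and at most 1 Cd8 UMI (455 and 780). Cd3e, which the rule required of innate-like cells only, stood at 856 to 1284 CPM in the 8 sums of class and pool. Il2ra, which the rule did not use, stood at 294 and 554 CPM in Treg cells against 34.3 to 125 CPM elsewhere. Of 4516 kept Foxp3-positive cells, 2779 (61.5%) also carried a Cd8a or Cd8b1 UMI and were left out, so the Treg class is a minority of the Foxp3-positive cells.

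Areg was higher in Treg cells than in every other class of both pools. Its level was 729 CPM (exact Poisson 95% interval 707 to 751) in B16-Ova Treg cells and 393 CPM (378 to 408) in MC38-Ova Treg cells. CD4 cells had 126 CPM (114 to 138) in B16-Ova and 189 CPM (176 to 203) in MC38-Ova, CD8 cells had 73.8 and 53.1 CPM, and innate-like cells 25.8 and 19.3 CPM. The intervals of neighbours in this order overlapped only between the innate-like sums. All such intervals cover counting error only.

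Ebi3 and Il10, the cytokine genes, were also highest in Treg cells, but CD4 cells of the MC38-Ova pool came close for Ebi3. Ebi3 stood at 70.3 CPM (63.6 to 77.5) in B16-Ova and 82.7 CPM (76.1 to 89.8) in MC38-Ova Treg cells. In CD4 cells it was 22.6 CPM in B16-Ova and 61.5 CPM (54.2 to 69.4) in MC38-Ova, and the latter interval overlapped that of B16-Ova Treg cells. In CD8 and innate-like cells Ebi3 lay between 3.83 and 5.12 CPM, with overlapping intervals. Il10 was 91.0 CPM (83.4 to 99.2) and 86.9 CPM (80.1 to 94.1) in B16-Ova and MC38-Ova Treg cells, with overlapping intervals, against 14.3 and 28.6 CPM in CD4 cells, 7.20 and 7.83 CPM in CD8 cells and 2.31 and 4.13 CPM in innate-like cells.

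Tgfb1 was broadly expressed. Its level was 249 CPM (236 to 262) in B16-Ova and 227 CPM (216 to 239) in MC38-Ova Treg cells, 208 and 211 CPM in CD4 cells, 179 and 173 CPM in CD8 cells, and 162 and 158 CPM in innate-like cells. The whole range over 8 sums was thus far narrower than that of the other members.

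Cd83 followed the pool as much as the class. It was 45.6 CPM (40.2 to 51.5) in B16-Ova Treg cells but 17.3 CPM (14.4 to 20.7) in MC38-Ova Treg cells, which lay below the 25.7 CPM (21.1 to 31.1) of MC38-Ova CD4 cells. The remaining sums were 23.7 CPM in B16-Ova CD4 cells, 23.6 and 8.45 CPM in CD8 cells, and 25.8 and 18.1 CPM in innate-like cells.

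Ecm1 stood higher in the MC38-Ova pool in every class. It was 69.4 CPM (62.8 to 76.6) in B16-Ova Treg cells and 295 CPM (282 to 308) in MC38-Ova Treg cells, 25.6 and 133 CPM in CD4 cells, 7.95 and 33.9 CPM in CD8 cells, and 9.26 and 54.5 CPM in innate-like cells. Within each pool Treg cells were highest, yet MC38-Ova CD4 cells were above B16-Ova Treg cells.

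**Figure D1:**
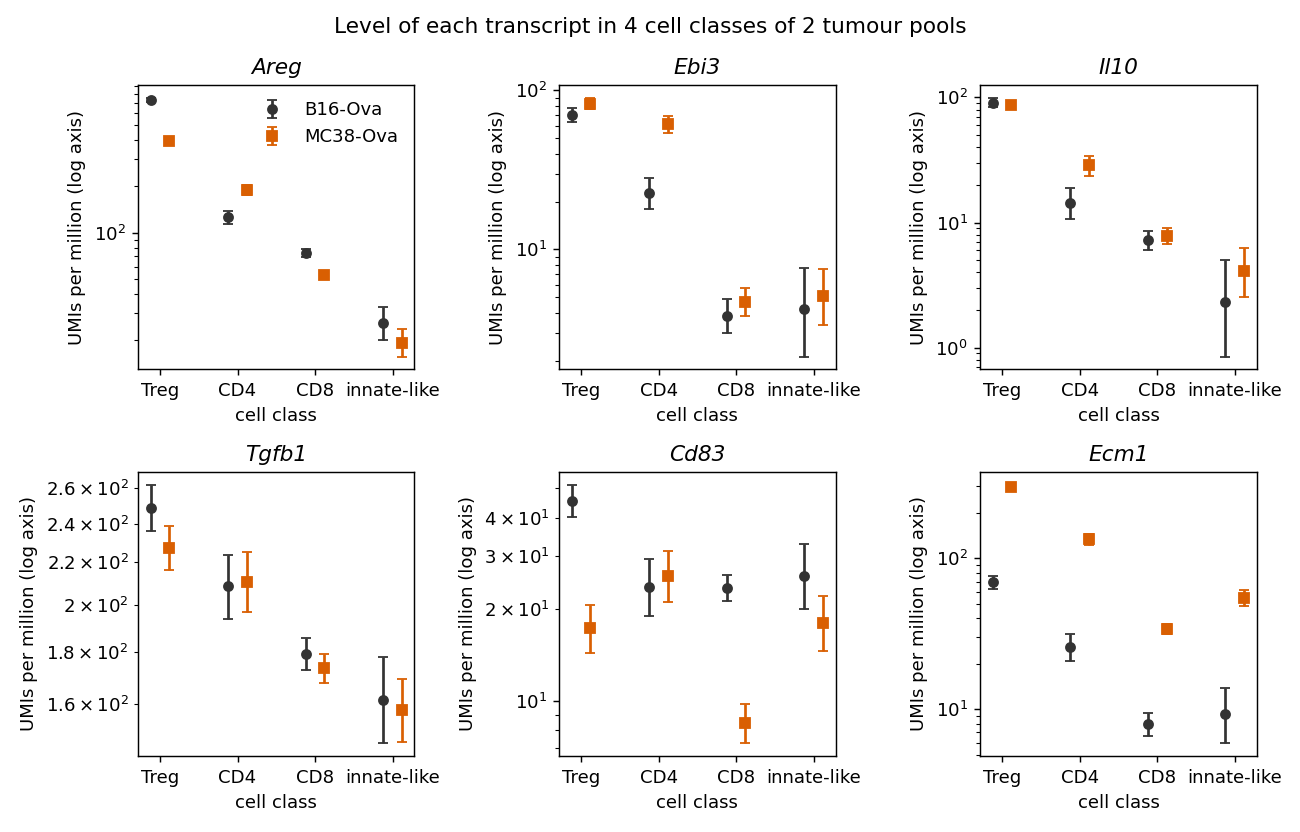
Level of each of the 6 genes in CPM (log axis) in Treg, CD4, CD8 and innate-like cells of the B16-Ova and MC38-Ova pools. Each point is 1 sum of class and pool and bars are exact Poisson 95% intervals, with Areg reaching 729 CPM in B16-Ova Treg cells while Tgfb1 stays between 158 and 249 CPM in all 8 sums.

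Treg cells were compared with each other class over 4 sums, 2 classes in each of 2 pools, with edgeR's quasi-likelihood test and a term for the pool, and p-values were adjusted by Benjamini-Hochberg across the whole gene table. The only replicates are 2 pools of 1 capture, and edgeR took part of the spread from all genes together. The median total degrees of freedom were 9.18 against CD4, 5.59 against CD8 and 4.87 against innate-like cells. The p-values therefore do not rest on the spread of a gene between the pools alone. In Treg cells 4 members rose against CD4 cells, where 4.1% of 10630 genes were called higher and 3.09% lower. Il10 was higher by 2.06 ± 0.22 on the log2 scale (SE, edgeR adjusted p = 0.000673), Areg by 1.77 ± 0.27 (0.00452), Ecm1 by 1.25 ± 0.12 (0.000383) and Ebi3 by 0.95 ± 0.23 (0.0422), all in both pools. The gap was wider in B16-Ova than in MC38-Ova for Areg (2.51 against 1.05) and Ebi3 (1.60 against 0.42), a difference between pools that was not tested. The Ebi3 call was lost with DESeq2 (adjusted p = 0.106), and the Areg call too (0.241). Tgfb1 (0.17, edgeR adjusted p = 0.382) and Cd83 (0.19, 0.798) did not pass, and Cd83 went in opposite directions in the pools, 0.91 in B16-Ova and -0.56 in MC38-Ova. Tgfb1 and Cd83 were therefore not shown to be higher in Treg than in CD4 cells.

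Against CD8 cells all 6 members rose, where 8.82% of 11666 genes were called higher. Ebi3 was higher by 4.05 ± 0.13 (SE, edgeR adjusted p = 0.000167), Il10 by 3.44 ± 0.12 (0.000195), Areg by 2.98 ± 0.12 (0.000300) and Cd83 by 0.87 ± 0.13 (0.0137). Ecm1 was higher by 3.005 ± 0.09 (edgeR adjusted p = 0.000165). Tgfb1 was higher by only 0.31 ± 0.08 (edgeR adjusted p = 0.0495), a call lost under 5 other settings, DESeq2 among them (0.249). The Cd83 call was lost with DESeq2 (0.0920). Among genes with a mean of at least 20 CPM, and apart from Foxp3 and Cd4, which the class rules used, Rln3 and Lrrc32 were called higher in Treg cells by more than Ebi3. Against innate-like cells 5 members rose, where 8.66% of 10786 genes were called higher. Il10 was higher by 4.56 ± 0.23 (edgeR adjusted p = 0.00165), Areg by 4.44 ± 0.14 (0.000899), Ebi3 by 3.90 ± 0.17 (0.0012) and Ecm1 by 2.45 ± 0.14 (0.00192). Tgfb1 was higher by 0.45 ± 0.08 (edgeR adjusted p = 0.0265), and Cd83 did not pass (0.25, 0.542) but was called without cells holding other-cell markers (0.95, edgeR adjusted p = 0.00489). The Tgfb1 call against innate-like cells was lost with DESeq2 (0.147).

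Markers of other cells differed between these classes as well. The summed macrophage markers were 243 CPM in B16-Ova and 72.4 CPM in MC38-Ova Treg cells, against 57.3 and 115 CPM in CD4 cells, and the summed dendritic markers were 79.7 and 207 CPM against 28.7 and 249 CPM. The 9 dendritic markers include the MHC class II genes H2-Ab1 and H2-Aa, so their sum is not specific to dendritic cells. Of the 9, 4 were at 0 in B16-Ova Treg and in B16-Ova CD4 cells. In MC38-Ova, 1 was at 0 in Treg and 2 in CD4 cells. Fibroblast markers in the MC38-Ova pool were 247 CPM in Treg and 73.4 CPM in CD4 cells. Melanoma markers were 33.6 CPM in B16-Ova and 188 CPM in MC38-Ova Treg cells, against 328 and 33.1 CPM in CD4 cells. Of 6 mast cell and basophil markers, 5 were at 0 in Treg cells. With cells carrying at least 2 UMIs of other-cell markers left out, the 4 members called against CD4 cells were called again, with Ecm1 at 1.501, and so were the 6 called against CD8 and the 5 called against innate-like cells. The dendritic markers H2-Ab1 and H2-Aa did not count toward this filter, here or below, so cells holding them were not left out for these genes.

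Treg cells of the MC38-Ova pool had less Areg and Cd83, and more Ecm1, than those of the B16-Ova pool. The ratio of MC38-Ova to B16-Ova CPM in Treg cells was 0.539 for Areg (exact conditional 95% interval 0.513 to 0.566), 0.381 for Cd83 (0.304 to 0.474) and 4.25 for Ecm1 (3.81 to 4.74). Ebi3 (1.18, 1.03 to 1.34), Il10 (0.955, 0.848 to 1.08) and Tgfb1 (0.914, 0.850 to 0.982) stayed within 1.5-fold. Among 7999 genes with at least 100 UMIs in Treg cells, 2.38% had an interval wholly above 1.5-fold and 1.11% wholly below its inverse, and the median ratio was 0.977. With 1 pool per tumour there is no test, and tumour, hashtag and mice cannot be told apart.

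The direction for Areg depended on the class. Areg was higher in MC38-Ova than in B16-Ova CD4 cells, by a ratio of 1.51 (1.34 to 1.69), but lower in CD8 cells (0.720, 0.664 to 0.781), and in innate-like cells the interval held 1 (0.746, 0.541 to 1.03), and stricter hashtags turned it to 1.45. In CD4 cells the 3 other members that differed all stood higher in MC38-Ova: Ebi3 by 2.72 (2.11 to 3.53), Il10 by 1.99 (1.43 to 2.82) and Ecm1 by 5.20 (4.17 to 6.55). In that class 1.59% of 6774 genes lay wholly above 1.5-fold. Cd83 was lower in MC38-Ova CD8 cells (0.359, 0.299 to 0.429), where 2.59% of 9758 genes lay wholly below the inverse of 1.5-fold, and did not differ beyond counting error in CD4 cells (1.09, 0.810 to 1.46).

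Ecm1 was higher in all 4 classes of the MC38-Ova pool. The ratio was 4.26 (3.55 to 5.16) in CD8 cells, where 2.67% of genes lay wholly above 1.5-fold, and 5.89 (3.87 to 9.34) in innate-like cells, where 1.34% of 6575 genes did. In that pool Ecm1 was 295, 133, 33.9 and 54.5 CPM in Treg, CD4, CD8 and innate-like cells. Fibroblast markers were also higher in all 4 classes of the MC38-Ova pool. Their sum lay between 2.31 and 3.86 CPM in the B16-Ova classes and at 247, 73.4, 27.0 and 147 CPM in MC38-Ova Treg, CD4, CD8 and innate-like cells. In 19 MC38-Ova barcodes defined by fibroblast markers, Ecm1 was 795 CPM (744 to 848), while Areg was 2.63 CPM. Single cells carried many of the UMIs: 182 of 2039 in 1 MC38-Ova Treg cell, 97 of 710 in 1 CD8 cell and 78 of 277 in 1 innate-like cell. Without cells holding at least 2 UMIs of other-cell markers the ratio was 3.47 in Treg, 3.20 in CD4, 2.93 in CD8 and 2.06 (1.15 to 3.90) in innate-like cells. Without cells above the 90th percentile of RNA depth it was 3.32, 4.07, 2.92 and 1.79 (1.05 to 3.21). Both innate-like values rest on fewer than 100 UMIs, 15 and 59 in the first case and 18 and 63 in the second. The part of fibroblast transcripts and of single cells in the Ecm1 ratios was not tested.

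**Figure D2:**
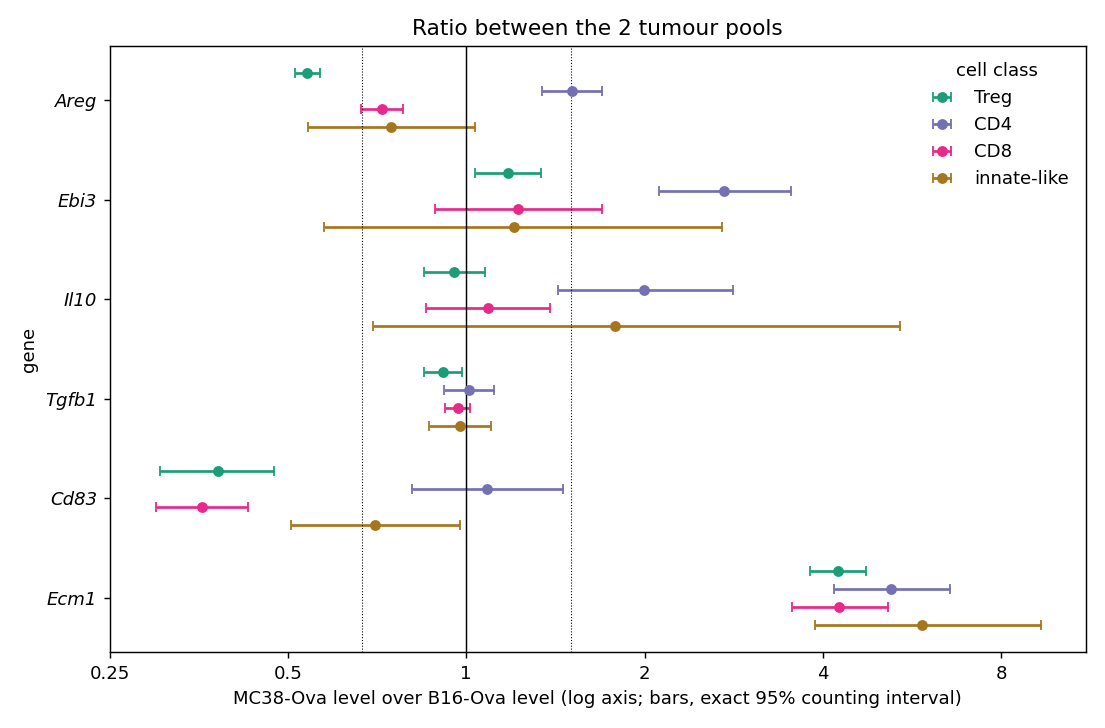
Ratio of the MC38-Ova to the B16-Ova level (CPM, log axis) of each gene in the 4 classes, with exact conditional 95% intervals that cover counting error only and dotted lines at 1.5-fold in either direction. Ecm1 lies to the MC38-Ova side in all 4 classes, and Areg lies at 0.539 in Treg but at 1.51 in CD4 cells.

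To compare shares of cells, each cell was thinned to 2000 RNA UMIs, which left out 100 B16-Ova and 110 MC38-Ova Treg cells below that depth. Areg was then detected in 32.1% of 677 B16-Ova Treg cells (exact binomial 95% interval 28.5 to 35.7) and 23.1% of 850 MC38-Ova Treg cells (20.3 to 26.0), against 40.5% and 32.2% before thinning. In the order B16-Ova then MC38-Ova, Ebi3 was detected in 13.3% and 15.2% (29.5% and 32.7% unthinned) and Il10 in 10.8% and 12.6% (22.0% and 21.6%). Tgfb1 was detected in 36.0% and 34.7% (67.1% and 63.9%), Cd83 in 5.61% and 2.71% (15.8% and 7.08%), and Ecm1 in 12.7% and 27.9% (31.1% and 49.9%). Free RNA in droplets can give UMIs to cells that lack a gene. As a reference, the same shares were taken in CD8 cells with Ccr7 and without Gzmb (210 and 199 cells, median 6721 and 6215 UMIs). These cells were not shown to lack the genes, so their shares do not measure free RNA. There Areg was found in 2.86% and 6.53%, Il10 in 0.476% and 0%, Tgfb1 in 16.2% and 21.1%, Cd83 in 4.29% and 0%, and Ecm1 in 1.90% and 2.01%. Ebi3 was found in 0 of 210 and 0 of 199 cells, which allows shares of up to 1.43% and 1.51%. Several shares outside Treg cells were not above this reference. In all CD8 cells these were Areg in MC38-Ova, 5.49% (11.8% unthinned), and in B16-Ova Cd83, 2.72% (7.42% unthinned), and Ecm1, 1.86% (5.80% unthinned). The Cd83 share of B16-Ova CD4 cells, 2.33% (5.18% unthinned), was also not above it, nor in innate-like cells were those of Areg in MC38-Ova and of Cd83, Ecm1 and Il10 in B16-Ova. Where the reference share was 0%, shares under the limit for 0 were also not above it. These were Ebi3 in CD8 (0.812% and 1.11%) and innate-like cells (1.34% and 1.03%) of both pools. In MC38-Ova, Il10 in CD8 (0.991%) and innate-like cells (0.906%) and Cd83 in CD8 cells (1.16%) were also under it. The Treg shares were above the reference for all 6 members in both pools, but for Cd83 the intervals of Treg and reference cells overlapped in both pools.

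Areg was unevenly spread over Treg cells, whereas Ebi3 and Tgfb1 were spread more evenly. At 2000 UMIs, 77 B16-Ova Treg cells (11.4%) and 57 MC38-Ova Treg cells (6.71%) had at least 5 Areg UMIs, while no cell had so many of Ebi3. The variance over the mean was 10.3 and 9.34 for Areg, 1.18 and 1.25 for Ebi3, and 1.15 and 1.16 for Tgfb1 in the B16-Ova and MC38-Ova pools. Il10 lay between, at 3.66 and 2.06, and Cd83 at 3.02 and 1.78. Ecm1 changed from 1.31 in B16-Ova to 8.70 in MC38-Ova, where 11 cells (1.29%) had at least 5 UMIs and 1 cell had 50. The most Areg UMIs in 1 thinned cell were 29 and 31.

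**Figure D3:**
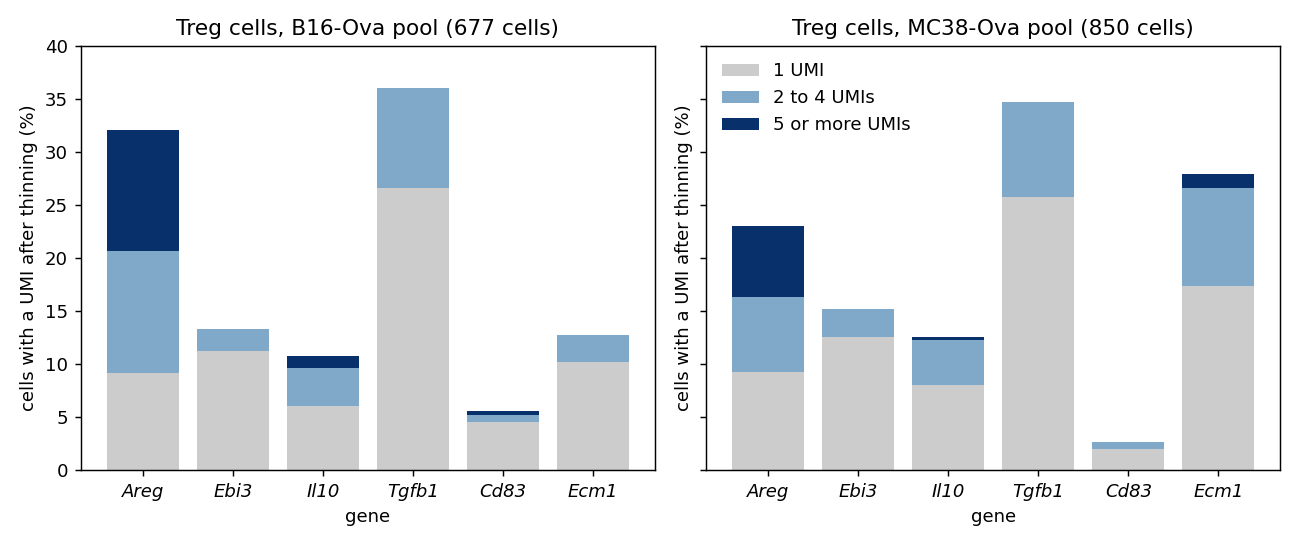
Percent of Treg cells with 1, 2 to 4, or at least 5 UMIs of each gene after thinning each cell to 2000 RNA UMIs, for the B16-Ova (677 cells) and MC38-Ova (850 cells) pools. At least 5 Areg UMIs were found in 11.4% of B16-Ova and 6.71% of MC38-Ova cells, against no cell for Ebi3.

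Few Treg cells held several of these transcripts at this depth. With Tgfb1 set aside, 312 B16-Ova cells (46.1%) and 368 MC38-Ova cells (43.3%) had none of the other 5, 250 and 302 had exactly 1, and no cell had all 5. Areg and Cd83 were found together in 19 B16-Ova cells, where the product of their shares gives 12.2, and in 9 MC38-Ova cells, where it gives 5.30. Il10 and Cd83 met in 1 cell of each pool, against 4.10 and 2.90. Ebi3 and Il10 met in 18 cells against 9.70 in B16-Ova but in 16 against 16.2 in MC38-Ova. These are counts within 2 pools and carry no test.

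Subsets of Treg cells defined by other transcripts differed in which member was high. Il1rl1, the receptor for the alarmin IL-33, was found in 52 B16-Ova and 102 MC38-Ova Treg cells. These had more Areg (999 and 881 CPM, against 708 and 315 CPM without Il1rl1), more Cd83 (134 and 44.2, against 38.8 and 13.1 CPM) and more Ecm1 (105 and 629, against 66.7 and 242 CPM). They had less Il10, 53.5 and 28.4 CPM against 93.9 and 96.2 CPM. Klrg1, a receptor of effector Treg cells, marked a different pattern. Treg cells with Klrg1 (333 and 403 cells) had more Areg (865 and 451, against 571 and 335 CPM), Ebi3 (92.0 and 96.8, against 45.1 and 68.8 CPM) and Il10 (110 and 116, against 68.8 and 58.4 CPM), and less Cd83 (33.4 and 12.8, against 59.8 and 21.9 CPM). Cells with at least 2 UMIs of the proliferation genes Mki67 and Top2a (157 and 135 cells) had less Areg, 543 and 275 CPM against 840 and 435 CPM in the others. These values order cells within a pool, have no test and were not thinned to equal depth.

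**Figure D4:**
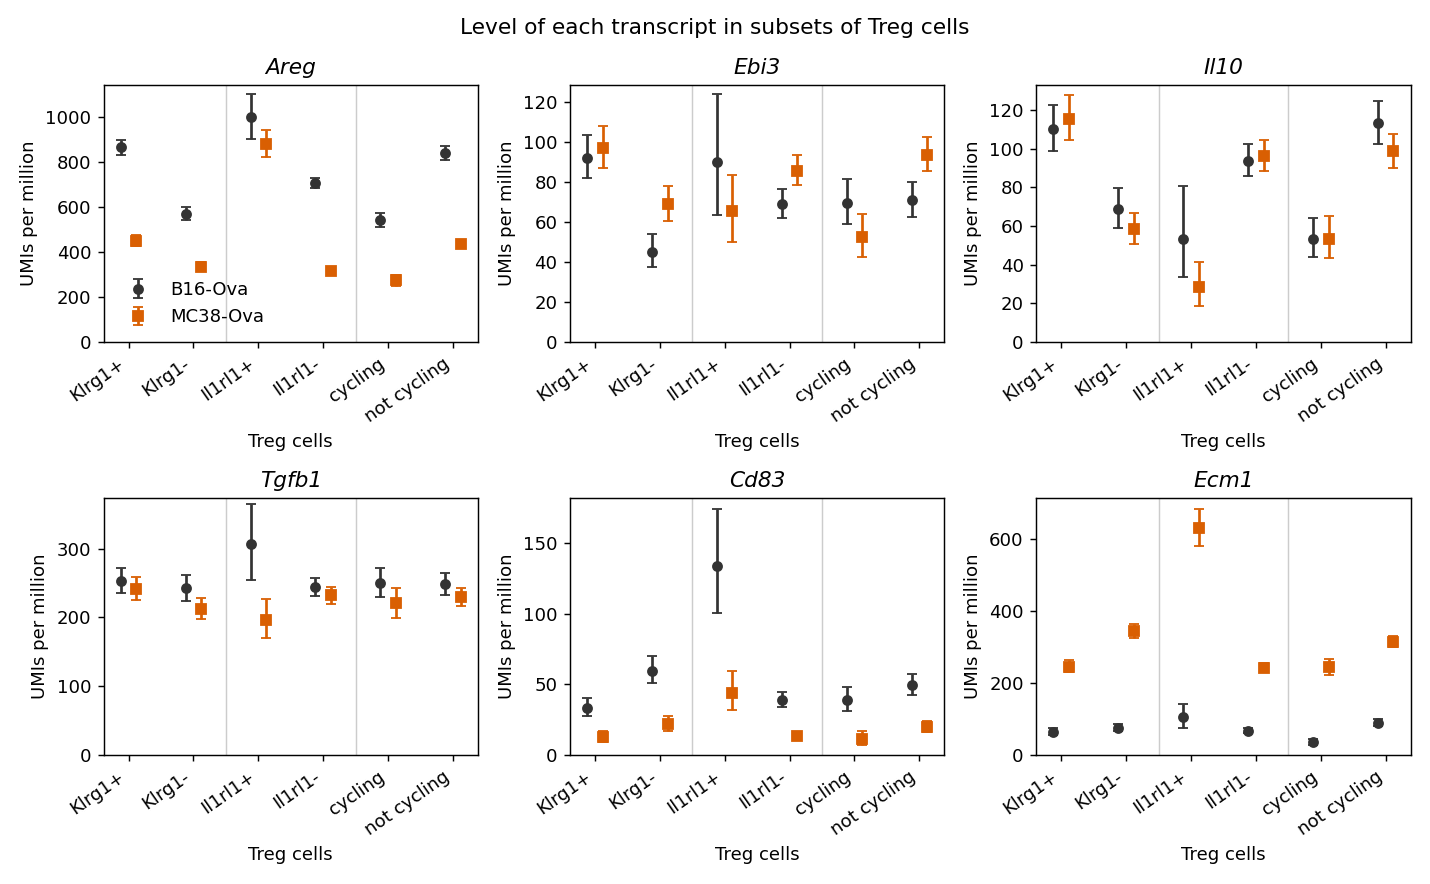
Level (CPM) of the 6 genes in Treg cells with and without Il1rl1, Klrg1 or proliferation transcripts, for each pool, with exact Poisson 95% intervals. Il1rl1-positive cells have Areg at 999 and 881 CPM and Il10 at 53.5 and 28.4 CPM, and Klrg1-positive cells have more of both Areg and Il10 than Klrg1-negative cells.

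Among Foxp3-negative subsets, Areg was high in CD4 cells with a transcript of the type 2 cytokine genes Il4, Il5 or Il13. There it was 422 CPM in 18 B16-Ova cells and 709 CPM in 51 MC38-Ova cells, against 72.4 and 91.6 CPM in CD4 cells with Ifng. Among CD8 cells, those with at least 2 UMIs of the granzyme genes Gzmf and Gzmc had 143 and 68.3 CPM, while cells with Ccr7 and without Gzmb had 20.5 and 68.0 CPM. The Foxp3-positive cells left out for 1 Cd8 UMI had 693 and 497 CPM of Areg.

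Thinned Treg cells with an Areg UMI (217 B16-Ova and 196 MC38-Ova) were compared with those without, leaving Areg out of the table. Few genes were called, 17 higher and 20 lower, or 0.562% of 6578. Cxcl10, a chemokine, was higher by 1.49 ± 0.14 on the log2 scale (240 against 109 CPM in B16-Ova and 667 against 200 CPM in MC38-Ova). Nfkbiz was higher by 0.80 ± 0.13, Nfkbia by 0.52 ± 0.07 and Bcl3 by 0.58 ± 0.16, all NF-kB regulators, and Icam1, an adhesion molecule, by 0.59 ± 0.14. The co-stimulatory receptor Tnfrsf9 was higher by 0.50 ± 0.08 and the TGF-beta-releasing integrin subunit Itgav by 0.55 ± 0.14. Lower were Ly6c2 (-1.25 ± 0.13), Tcf7, a transcription factor of naive and memory T cells (-1.35 ± 0.32), and Xcl1 (-1.89 ± 0.36). Also lower were Fcer1g (-1.51 ± 0.25), which the rule for innate-like cells used, Klra7 (-1.52 ± 0.40), Cd7 (-1.385 ± 0.23) and Klrd1 (-1.02 ± 0.23). None of the other 5 members passed, of which Cd83 was 1.18 ± 0.35 (edgeR adjusted p = 0.081), Ecm1 0.52 ± 0.16 (0.118) and Tgfb1 0.40 ± 0.14 (0.267). In cells thinned to 4000 UMIs Cd83 did pass, at 1.27 (edgeR adjusted p = 0.00138). In this and the next comparisons by a transcript, except that by Cd83, edgeR took the spread wholly from all genes together. DESeq2 called 2 genes, and the fit without the pool block called 0. With and without Areg, summed macrophage markers were 96.6 against 327 CPM in B16-Ova and dendritic markers 433 against 147 CPM in MC38-Ova. Summed markers of natural killer (NK) and NKT cells were 43.2 against 105 CPM in B16-Ova and 54.0 against 187 CPM in MC38-Ova. The part of these markers in the calls was not tested.

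In Il10-positive Treg cells, with Il10 left out of the table, 83 genes were higher and 53 lower, 2.06% of 6600. The checkpoint receptor gene Lag3 was higher by 1.60 ± 0.14 (741 against 330 CPM in B16-Ova and 898 against 223 CPM in MC38-Ova), and the chemokine genes Ccl4 and Ccl3 by 1.83 ± 0.14 and 1.42 ± 0.28. Of a list of 24 suppressor and core Treg genes, 12 were higher and 0 lower, among them Ctla4, Il2ra, Tigit and Icos, with a list median of 0.42 against -0.02 for all genes. Itgb8 was the only one of 14 tested ligand partners called higher. Fcer1g was lower, at -1.745 ± 0.37. Cd83 was at -2.52 ± 0.80 and did not pass (edgeR adjusted p = 0.0677). DESeq2 called 11 genes. With and without Il10, macrophage markers were 27.1 against 268 CPM in B16-Ova, and in MC38-Ova fibroblast markers were 0 against 285 CPM and melanoma markers 18.6 against 212 CPM. Their part in these calls was not tested. In Ebi3-positive Treg cells, 37 genes were higher and 42 lower (1.17% of 6728). They included Klrg1 at 0.86 ± 0.14, Penk, an enkephalin precursor, at 0.99 ± 0.22, and Fgl2, a secreted suppressor protein, at 0.75 ± 0.18. Among the lower genes were Fcer1g at -1.37 ± 0.32 and Klrd1 at -1.40 ± 0.32. Il10 was the only other member called there, at 0.80 ± 0.22 (edgeR adjusted p = 0.0237, 1.22 and 0.32 in the 2 pools), and this call was lost under 8 other settings, with DESeq2 calling 0 genes. In MC38-Ova cells with and without Ebi3, fibroblast markers were 7.22 against 292 CPM, dendritic markers 75.3 against 231 CPM and melanoma markers 16.5 against 218 CPM, and their part was not tested. For the 38 B16-Ova and 23 MC38-Ova Cd83-positive Treg cells edgeR and DESeq2 called 0 of 6578 genes (0%), with 363 at an unadjusted p under 0.05. At 4000 UMIs, 44 genes were called, and Areg was higher by 1.08 in the Cd83-positive cells (edgeR adjusted p = 1.894e-06). Between the 23 Cd83-positive MC38-Ova cells and those without Cd83, dendritic markers were 1348 against 182 CPM. For the 38 B16-Ova cells they went the other way, at 29.1 against 83.1 CPM. The part of dendritic markers in the calls at 4000 UMIs was not tested.

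In CD4 cells, Areg-positive cells had more of the type 2 genes Il5 (4.71 ± 0.86; 94.96 against 1.70 CPM in B16-Ova and 35.3 against 2.62 CPM in MC38-Ova) and Pparg (4.37 ± 0.93). Tnfrsf9 was higher by 1.28 ± 0.14, and Ifng (-0.96 ± 0.27), Ccl5 (-0.78 ± 0.09) and Gzma (-2.28 ± 0.52) were lower. There 34 genes were called higher and 17 lower (0.795% of 6412), while DESeq2 called 1 gene and cells thinned to 4000 UMIs gave 0. Hspa1a, a heat shock gene, was lower, at -4.14 ± 0.52 (25.9 against 376 CPM in B16-Ova). Melanoma markers were 19.4 against 367 CPM in B16-Ova CD4 cells with and without Areg, and dendritic markers 69.9 against 273 CPM in MC38-Ova. In CD8 cells, Areg-positive cells had more Lag3 (0.87 ± 0.11) and Gzmc (1.51 ± 0.19) and less Ccr7 (-1.08 ± 0.21), with 24 genes called higher and 13 lower (0.434% of 8530). Ecm1 was the member that rose with Areg there, by 2.44 ± 0.35 (edgeR adjusted p = 2.805e-09). Its call was lost without cells holding other-cell markers, at 1.11 (0.778), and with DESeq2, at 0.388. DESeq2 called 4 genes in CD8 cells. Melanoma markers were 21.7 against 263 CPM in B16-Ova CD8 cells with and without Areg, and dendritic markers 16.9 against 90.6 CPM in MC38-Ova. The part of these markers and of Hspa1a in the calls by Areg was not tested.

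Genes that act on these ligands were uneven in Treg cells. Of 34 partner, protease and receptor genes, 18 could be tested against CD4 cells, where 4.1% of 10630 genes were called higher and 3.09% lower. The TGF-beta1 docking gene Lrrc32 (2.38), Itgb8 (1.95) and Itgav (1.46) rose, and the receptor subunits Il12rb2 (-1.24) and Tgfbr2 (-0.86) and the protease Furin (-0.99) fell, with a list median of 0.30 against 0.00 for all genes. Lrrc32 was 63.9 and 80.7 CPM in B16-Ova and MC38-Ova Treg cells against 13.2 and 14.3 CPM in CD4 cells, so the docking gene differed between classes while Tgfb1 itself did not pass the test. Itgav stood at 338 and 164 CPM and Itgb8 at 63.4 and 29.1 CPM, both higher in the B16-Ova Treg cells. The partner subunits of Ebi3 were near 0: Il12a at 0 and 0.145 CPM and Il27 at 0.174 and 0 CPM. The amphiregulin sheddase gene Adam17 (57.4 and 49.9 CPM) and the related protease gene Adam10 (49.8 and 51.8 CPM) were present. The Areg receptor gene Egfr was at 0.348 and 2.31 CPM. Of other EGF family ligands, Hbegf was at 8.53 and 10.4 CPM and Ereg at 0 and 1.01 CPM.

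Of the 20 genes of a tissue Treg and repair list, 18 were tested against CD4 cells and 8 rose, where 4.1% of all genes were called higher and 3.09% lower, among them Ccr8 (1.35), Nfil3 (1.24), Prdm1 (1.02) and Penk (0.79). Il18r1 (-1.08), Cd9 (-0.78) and Rora (-0.38) fell. The list's median was 0.35. Of 24 suppressor and core genes 19 rose, 1 of them Foxp3, which set the class, and Nrp1 fell (-0.79). Of 19 activation genes 9 fell, such as Egr2 (-1.62) and Egr1 (-0.97), and Irf8 rose (0.93).

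L-Pha binding was read by ranking the Biotin tag within deciles of RNA depth into 4 bins and comparing bin 4, the highest, with bin 1. In Treg cells no member passed, where 0.789% of 8495 genes were called. Il10 was nearest, at 0.95 ± 0.17 (edgeR adjusted p = 0.0503), and was called under 4 other settings, such as without cells holding other-cell markers (1.36, 0.0217). DESeq2 did not call Il10. From bin 1 to bin 4 it was 61.9, 44.7, 123 and 132 CPM in B16-Ova and 47.9, 107, 100.4 and 89.3 CPM in MC38-Ova Treg cells, so that bin 1 was below bins 3 and 4 in both pools. Areg was higher in each successive bin only in B16-Ova, at 461, 673, 861 and 914 CPM, against 417, 314, 379 and 450 CPM in MC38-Ova (0.51 ± 0.20, edgeR adjusted p = 0.335, called under 3 other settings but not with DESeq2). The remaining folds were 0.49 for Ebi3, 0.31 for Ecm1, -0.21 for Tgfb1 and -0.68 for Cd83. Macrophage markers were higher in bin 4 than in bin 1 too, 803 against 18.8 CPM in B16-Ova and 120 against 70.3 CPM in MC38-Ova, as did dendritic markers, 230 against 16.7 and 490 against 98.4 CPM. In MC38-Ova the fibroblast markers were 820 against 3.20 CPM. Their part in the values by lectin was not tested.

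In CD8 cells Areg was the 1 member that rose with L-Pha, by 1.45 ± 0.18 (edgeR adjusted p = 0.0220, DESeq2 0.0109), where 0.728% of 10160 genes were called higher. From bin 1 to bin 4 it was 39.6, 85.6, 78.2 and 91.5 CPM in B16-Ova and 20.6, 35.7, 76.7 and 77.1 CPM in MC38-Ova. Bin 1 was lowest in both pools, and bin 2 was also low in MC38-Ova. Ranking without depth deciles ended the call (edgeR adjusted p = 0.0948). Ecm1 had 12.8, 20.3, 20.03 and 79.7 CPM in the MC38-Ova bins but 8.85, 7.48, 5.38 and 10.04 CPM in B16-Ova, and did not pass (1.72 ± 0.46, edgeR adjusted p = 0.157). It was called under 3 other settings but not with DESeq2 (adjusted p = 0.878). Macrophage markers were 124 against 18.2 CPM in B16-Ova and 130 against 16.1 CPM in MC38-Ova, and fibroblast markers 94.7 against 1.57 CPM in MC38-Ova, and their part was not tested.

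**Figure D5:**
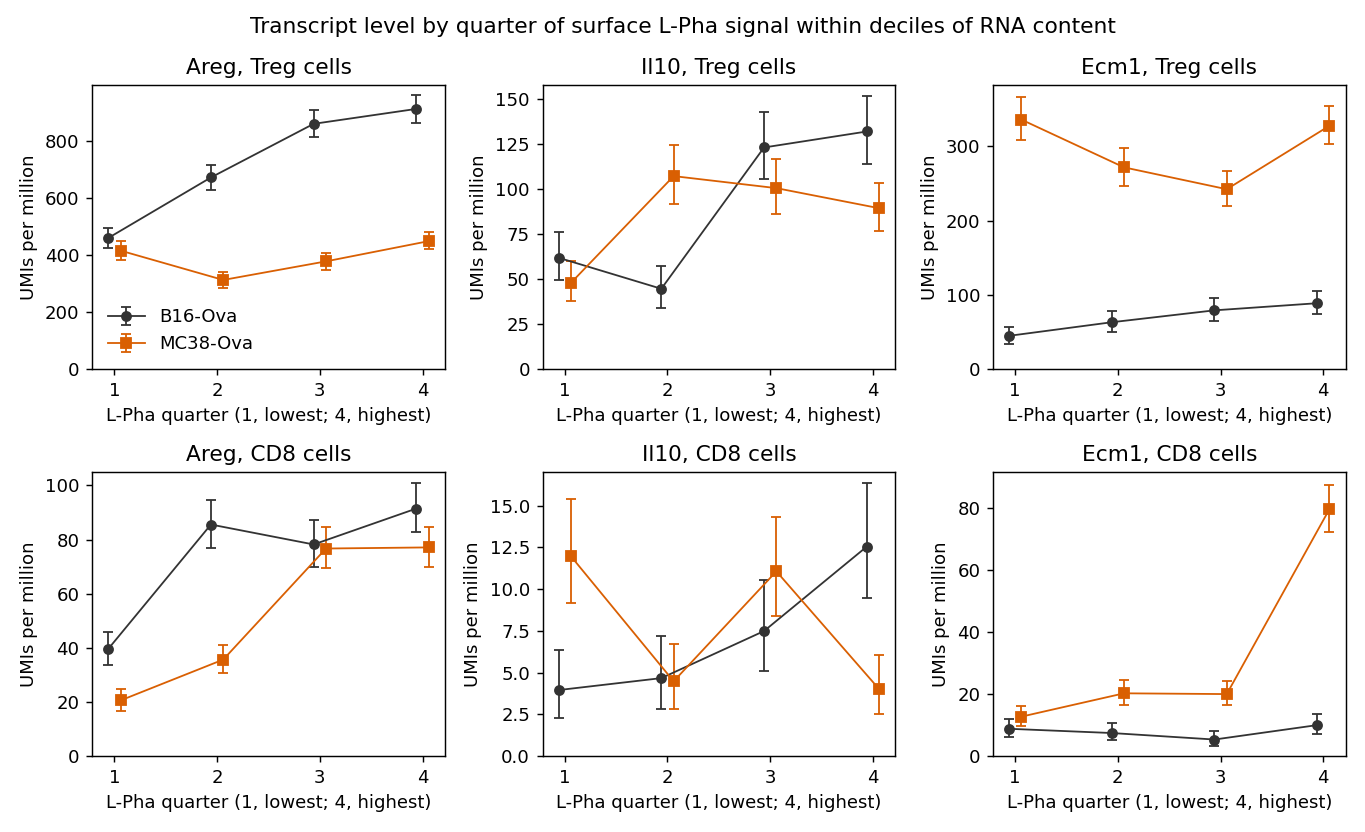
Level (CPM) of Areg, Il10 and Ecm1 in Treg (top) and CD8 (bottom) cells by bin of the L-Pha tag ranked within deciles of RNA depth, from lowest (1) to highest (4), for both pools, with exact Poisson 95% intervals. In Treg cells Areg goes from 461 to 914 CPM over the B16-Ova bins and from 417 to 450 CPM over the MC38-Ova bins, and in CD8 cells Areg is lowest in bin 1 of both pools.

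By surface PD-1, Treg cells of the B16-Ova pool had less Areg with more tag, 888, 763, 706 and 565 CPM from bin 1 to bin 4, while MC38-Ova had 455, 309, 427 and 379 CPM. Cd83 went the other way, at 25.8, 46.0, 52.6 and 57.6 CPM in B16-Ova and 12.5, 7.68, 22.7 and 26.2 CPM in MC38-Ova. By Tim-3, Areg was 718, 788, 734 and 676 CPM in B16-Ova and 490, 368, 361 and 358 CPM in MC38-Ova. No test was made by PD-1 or Tim-3.

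Over the 8 sums of class and pool, the genes whose log2 levels were most like those of a member were ranked among 6359 genes. Pearson's r was 0.99 for Slc15a3 with Ebi3, 0.93 for Pphln1 with Cd83 and 0.97 for Oas1a with Ecm1. Gnb2 led for Il10 and Neb for Tgfb1. The 8 sums share 1 capture and 2 pools, so these values describe likeness only.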

How the data were processed

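RNA, hashtag and antibody counts came from 1 droplet capture, deposited as 1 matrix of UMI counts per gene or tag and barcode. Per the submitters' processing notes, Cell Ranger 3.1.0, mm10, R 3.6.1 and Seurat 3.1.0 were used, and the deposited counts are not normalized. The labels name a 5′ and a 3′ kit, so the counted transcript end is not settled here. The sequences of T cell receptors, a separate library, were not analysed here.

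Barcodes needed 500 or more genes and no more than 10% of UMIs from mitochondrial genes (18429 passed) and were kept when 1 hashtag had at least 150 UMIs and at least 3 times the other. Barcodes with both hashtags (2388) were left out as doublets between pools, and no doublet caller was run, so doublets within a pool remain. Of the kept cells 6195 fell in no class. Treg sums held 5746061 (B16-Ova) and 6916627 (MC38-Ova) RNA UMIs, and class sums ranged from 2592067 to 20937848.

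Counts were summed per class and pool. edgeR 4.0.16 (R 4.3.3) quasi-likelihood fits with a pool term gave log2 fold changes, and Benjamini-Hochberg adjustment with a threshold of 0.05 ran over all genes tested in each of 11 comparisons. Cells of each pool served both groups of a fit, and pools are the pairing. Python 3.11.15 (scipy 1.17.1) gave exact Poisson, binomial and conditional 95% intervals, which cover counting error only, and the limit for a count of 0 is 3 counts. Cells were thinned to 2000 UMIs for shares and for comparisons by a member's UMIs, with that member removed.

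The 6 members are always named. Other genes named from a comparison are among the 12 with the largest fold per direction with adjusted p under 0.05, a mean of at least 20 CPM and 1 direction in both pools, or belong to the gene lists. Likeness names the leading genes by Pearson's r, and the one for Areg is not reported here. Members, lists and tests were chosen with earlier results of these data known. DESeq2 1.42.0, no filter, no pool term, other depths, stricter cell and hashtag filters and other cell sets were tried. A Treg class allowing 1 Cd8 UMI was added after the data were seen. The fits were tested on simulated data.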

Additional observations from a re-analysis of the deposited data

Results flagged for a closer look

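Cd83 differed between the pools in Treg against CD4 cells, with log2 ratios of CPM of 0.94 in B16-Ova and -0.57 in MC38-Ova, each beyond counting error. Tgfb1 did so between the highest and lowest L-Pha bins of Treg cells, at 0.22 and -0.55, and Il10 between those of CD8 cells, at 1.66 and -1.57. The MC38-Ova to B16-Ova ratio of Areg was 1.51 in CD4 cells but 0.539 in Treg and 0.720 in CD8 cells. These differences between pools or classes were not tested.

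Foxp3-positive cells with at least 2 Cd8a or Cd8b1 UMIs, which no comparison used, also carried the 6 transcripts above the limit that a count of 0 allows. In B16-Ova the levels were 444 CPM for Areg, 32.7 for Ebi3, 46.7 for Il10, 232 for Tgfb1, 30.0 for Cd83 and 31.1 for Ecm1. In MC38-Ova they were 229, 40.07, 39.97, 232, 14.7 and 130 CPM in that order. These cells were deep, with medians of 17270 and 13574 RNA UMIs.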

How the results depend on the processing

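Covered here are the members' fold changes between classes and by L-Pha, and, in comparisons by a transcript, those with an unadjusted p under 0.05; other members there were not followed. Under other settings 396 of these values kept their direction and, where an adjusted p was given, their side of the threshold. Another 25 gained a call, 33 lost one and 21 reversed, and causes were not tested. Values with a pool left out have no test and were judged by direction alone. The fits as reported called 764 genes for Treg against CD4, 1879 against CD8 and 1668 against innate-like cells, 67 by L-Pha in Treg and 100 by L-Pha in CD8 cells. By a member's UMIs they called 37 (Areg), 79 (Ebi3), 136 (Il10) and 0 (Cd83) in Treg cells, and for Areg 37 in CD8 and 51 in CD4 cells.

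DESeq2 called 228 against CD4, 870 against CD8, 825 against innate-like, 20 by L-Pha in Treg and 31 in CD8 cells, 2 (Areg), 0 (Ebi3) and 11 (Il10) in Treg, and 4 and 1 for Areg in CD8 and CD4 cells. The fit with no replicate block for the pool called 60 against CD4, 307 against CD8, and 0 by L-Pha in Treg and in CD8 cells and by Areg, Ebi3 or Il10. Without the block the calls against CD4 were lost for Il10 (edgeR adjusted p = 0.0826), Areg (0.124), Ebi3 (0.473) and Ecm1 (0.647). With no filter on low counts, L-Pha called 527 in Treg and 428 in CD8 cells, and without depth deciles 178 and 2.

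Stricter hashtags gave 481 against CD4, 319 and 311 by L-Pha, 19 (Areg), 33 (Il10) and 9 (Cd83) in Treg, and 12 and 17 for Areg in CD8 and CD4 cells, with Areg ratios between pools of 0.829 in CD8 and 1.45 in innate-like cells. A stricter cell filter gave 499 against CD4, 112 by L-Pha in Treg, 6 (Areg) and 4 (Cd83) in Treg, and 3 for Areg in CD8 cells. Requiring 2 Foxp3 UMIs gave 4 (Areg), 0 (Ebi3) and 43 (Il10) and an Il10 ratio of 1.09 in Treg cells. Allowing 1 Cd8 UMI in a Treg cell, chosen after seeing the data, gave 14 (Areg), 6 (Cd83), 292 by L-Pha and an Areg ratio of 0.584. Thinning to 4000 UMIs gave 187 (Ebi3) and 44 (Cd83) in Treg, and 108 and 0 for Areg in CD8 and CD4 cells.

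Without cells holding other-cell markers the counts were 1178 against CD4, 2605 against innate-like, 234 and 51 by L-Pha, 95 (Areg), 24 (Il10) and 3 (Cd83) in Treg, and 1 for Areg in CD4 cells. The ratios of Areg were then 0.503 in Treg and 1.21 in CD4 cells, and those of Ecm1 3.47, 3.20, 2.93 and 2.06 in Treg, CD4, CD8 and innate-like cells. Without the deepest cells the counts were 3043 against CD8, 3442 against innate-like, 677 and 296 by L-Pha, 72 (Areg) and 7 (Cd83) in Treg, and 22 for Areg in CD8 cells. The ratios of Ecm1 were then 3.32, 4.07, 2.92 and 1.79, and that of Cd83 in CD4 cells 1.46.

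None of the covered fold changes that turned direction was called in the fits as reported. By L-Pha in Treg cells, Areg was -0.12 and Ecm1 -0.37 without depth deciles, Ebi3 -0.068 and Ecm1 -0.27 with 2 Foxp3 UMIs, Tgfb1 0.074 and Ecm1 -0.30 without other-cell markers, and Tgfb1 0.10 and Ecm1 -0.046 without the deepest cells. By L-Pha in CD8 cells, Il10 was 0.0023 without other-cell markers and Cd83 0.65 without depth deciles. Areg in Ebi3-positive Treg cells was -0.23 with 2 Foxp3 UMIs, and Ecm1 in Cd83-positive cells 0.58 at 4000 UMIs.

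Leaving out a pool leaves 1 sum a group and no test. The values without MC38-Ova and without B16-Ova were 0.91 and -0.56 for Cd83 against CD4 and 0.67 and -0.18 against innate-like cells. By L-Pha in Treg cells they were 0.16 and -0.56 for Tgfb1 and 0.90 and -0.054 for Ecm1. By L-Pha in CD8 cells they were -0.12 and 0.27 for Ebi3, 1.47 and -1.55 for Il10, and 0.40 and -0.12 for Tgfb1. Areg gave -0.050 and 0.53 in Ebi3-positive and 0.77 and -0.20 in Il10-positive Treg cells.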
